A study of Mus musculus with 60 samples.

Results

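The genes described here are 10 genes of activin and TGF-beta signaling, chosen by name: the activin beta subunit genes Inhba, Inhbb and Inhbe, the activin antagonist Fst (follistatin), the ligand genes Tgfb1 and Tgfb2, the receptor genes Tgfbr1 and Tgfbr2, and the inhibitor genes Smad7 and Skil. All 10 were listed among the 19355 gene symbols of the cell table and among the 17473 of the liver table. Purified mRNA was sequenced from 33 cell samples in 11 groups of 3 and from 18 liver samples in 6 groups of 3, all labelled as wild type (WT) C57BL/6 mice, which were adult by the study's methods. The study also describes a clone-1 grown from 1 tdTomato-marked hepatocyte of an Albumin-Cre reporter mouse, and whether the samples labelled clone-1 are that clone was not settled here. IL6-iHPCs are progenitor-like cells that grow out of hepatocytes in a medium with EGF, HGF, dexamethasone and IL6, and a switch to a maturation medium with dexamethasone and oncostatin M turns them into IL6-iMHs, which resemble hepatocytes. The cell groups comprised Hepatocytes as isolated, unpassaged (P0) IL6-iHPCs on days 3 and 14, IL6-iHPCs of 4 passaged lines (mouse-1 at P10 and again at P35, mouse-2 at P10, and clone-1, a single clone, at P20), and the IL6-iMHs of the same 4 lines. The liver groups were Normal liver and liver at 6 hours, 24 hours, 3 days, 7 days and 14 days after partial hepatectomy (PHX), the removal of most of the liver. All IL6-iHPC groups shared the growth factors of the medium as well as IL6, and no culture kept without IL6 from the start was analysed here.

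Activins are dimers of beta subunits, and a dimer of 2 Inhba products is activin A. Activins and TGF-beta bind paired serine/threonine kinase receptors of types I and II, which phosphorylate SMAD2 and SMAD3, and in liver both ligand families are known to restrain hepatocyte growth. Follistatin binds activins and keeps them from their receptors, SMAD7 blocks the type I receptor, and SKIL (SnoN) represses SMAD target genes. SMAD7 and SKIL are themselves known to be induced by the pathway they inhibit.

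The 3 beta subunit genes followed different courses, and the sequence around each start is therefore shown. Each run holds 250 bases before and 50 after the start of transcription in RefSeq on GRCm38.p6, written 5′ to 3′ on the strand of the gene, with matches to searched motifs in capitals. Inhba lies on the plus strand (chr13:16011601-16011900), and Inhbb (chr1:119422199-119422498) and Inhbe (chr10:127351799-127352098) lie on the minus strand.
Inhba: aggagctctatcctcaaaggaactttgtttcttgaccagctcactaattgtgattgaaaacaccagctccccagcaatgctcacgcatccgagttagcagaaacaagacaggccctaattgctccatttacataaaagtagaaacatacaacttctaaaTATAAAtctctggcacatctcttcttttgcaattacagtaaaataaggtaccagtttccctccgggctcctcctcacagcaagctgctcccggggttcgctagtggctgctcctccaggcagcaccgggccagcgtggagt
Inhbb: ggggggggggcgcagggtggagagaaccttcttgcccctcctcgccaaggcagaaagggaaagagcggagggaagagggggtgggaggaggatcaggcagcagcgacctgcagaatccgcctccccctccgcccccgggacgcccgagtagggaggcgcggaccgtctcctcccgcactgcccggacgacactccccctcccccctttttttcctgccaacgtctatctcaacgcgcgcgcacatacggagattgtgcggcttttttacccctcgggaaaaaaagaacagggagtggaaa
Inhbe: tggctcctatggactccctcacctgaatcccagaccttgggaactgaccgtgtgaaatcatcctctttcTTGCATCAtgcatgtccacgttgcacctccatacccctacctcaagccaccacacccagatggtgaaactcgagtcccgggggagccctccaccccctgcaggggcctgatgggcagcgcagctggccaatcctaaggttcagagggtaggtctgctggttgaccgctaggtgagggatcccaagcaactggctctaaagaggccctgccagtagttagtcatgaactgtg
The motifs were searched on both strands as TGA and TCA parted by any 1 base (AP-1), TGACGTCA (CRE), TGATGNAA (a composite site of ATF4), TTCNNNGAA (STAT) and TATAAA (a core promoter box), and for SMADs as the palindrome GTCTAGAC and the shorter element CAGACA. The Inhba window held TATAAA at position -91 from the start, and 13.6% of 32851 promoter windows of this length held it at any position. The Inhbe window held the ATF4 composite on the opposite strand at position -181, and 3.97% of windows held it at any position. The Inhbb window held none of these letters, and its GC content was 64.3% against 47.7% for Inhba and 57.3% for Inhbe. The GENCODE M21 gene models on GRCm38 (mm10) place Inhba at chromosome 13, 16011851 to 16031621, Inhbb at chromosome 1, 119415465 to 119422248, and Inhbe at chromosome 10, 127348857 to 127354411, so that the RefSeq start of Inhbe used here lies inside the GENCODE gene. Windows for Tgfb1, Tgfb2, Tgfbr1 and Tgfbr2 are not printed, and Fst, Skil and Smad7 were not searched.

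Values are FPKM, the fragments per kilobase of transcript scaled to the depth of each library, so levels can be compared between genes. Between 46300000 and 77130000 reads fell on genes in a cell library and between 45880000 and 72570000 in a liver library, as recovered from the values, and 3 reads of a member corresponded to at most 0.0285 FPKM in the cell table. The study calls the 3 samples of a cell group technical repeats, so their spread does not cover variation between mice, and the labels do not tie liver samples to animals. Each of the 33 cell libraries resembled its own group most over the 2000 most variable genes (r of 0.99 or more). In the liver 16 of 18 did, with PHX-D3 replicate 2 closer to PHX-24h (r = 0.792) than to its own group (0.705) and PHX-D3 replicate 3 closer to Normal liver (0.920) than to its own (0.884). The 4 Y-linked genes examined together had 6575 to 9095 reads in each IL6-iHPC library of clone-1 and 0 in each IL6-iMH library of clone-1, although both carry the label clone-1, so results over the 4 lines are also given without it. The mouse-1 and mouse-2 libraries had 0 to 2 such reads, Hepatocytes 994 to 1550 and days 3 and 14 of culture 9185 to 18444, so comparisons of these lines with hepatocytes also differ in Y-linked reads, whose part in the results was not tested. Tests used limma on the log2(FPKM + 1) scale, with every group of a table in 1 fit, and a gene was called changed at an adjusted p under 0.05 (Benjamini-Hochberg over 12328 genes for the cells and 11114 for the livers) and a change of at least 2-fold. The filter of 1 FPKM in at least 3 samples was passed by all 10 members among the cells and by 9 among the livers, where Tgfb2, at 0.0543 to 0.417 FPKM, did not pass.

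In the first 3 days of culture nearly the whole set rose. Against hepatocytes, 8 of the 10 genes were called higher and 1 lower at day 3, where 53.9% of all genes tested were called higher, 12.1% lower and 66% either way. The median log2 fold change of the 10 was 3.30, and that of all genes was 1.14, so changes are also given relative to the latter. At day 14 all 10 were called, 9 higher and 1 lower, with 50% of all genes higher, 12.9% lower and 62.9% either way. The median of the 10 was then 3.00, against 1.00 over all genes. Both comparisons use the same 3 hepatocyte samples. After quantile normalization the shares of all genes called higher and lower were 27.1% and 22% at day 3 and 26.4% and 22.2% at day 14.

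Inhba, the subunit of activin A, stood at 0.49, 0.545 and 0.432 FPKM in hepatocytes, at 50.8, 50.7 and 55.5 FPKM at day 3 and at 17.6, 17.6 and 17.8 FPKM at day 14. All day 3 samples lay above all day 14 samples and these above all hepatocyte samples. The log2 fold change was 5.16 at day 3 (standard error 0.06, adjusted p = 1.4e-33 in limma), or 4.03 relative to all genes, and 3.65 at day 14. Between days 3 and 14 Inhba fell by 1.51 on the log2 scale (adjusted p = 1.9e-19 in limma).

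Fst, whose product binds activin, rose with it and stayed high. It stood at 0.592, 0.762 and 0.547 FPKM in hepatocytes, at 44.1, 44.6 and 43.5 FPKM at day 3 and at 48.9, 51.1 and 53.8 FPKM at day 14. The log2 fold change was 4.79 at day 3 and 5.0 at day 14 (adjusted p = 1.0e-31 and 3.3e-32 in limma), and the difference between the 2 days, 0.21, was not called. The ratio of Inhba to Fst was 1.19 ± 0.0749 at day 3 and 0.345 ± 0.0144 at day 14 (SD, n = 3), with no overlap between the days.

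The other 2 subunit genes moved in opposite directions. Inhbb rose from 0.0796, 0.094 and 0.0542 FPKM in hepatocytes to 1.66, 1.91 and 1.81 FPKM at day 14 (log2 fold change 1.37, standard error 0.06). At day 3, at 1.02, 1.31 and 1.09 FPKM, its change on the log2(FPKM + 1) scale was 0.99, just short of 2-fold. It passed in 3 of the 6 fits that left out 1 sample, with a pseudocount of 0.1 (2.81) and with voom on the recovered reads (3.89). Inhbe, a subunit made chiefly by hepatocytes, fell from 9.28, 9.72 and 8.19 FPKM to 1.41, 1.53 and 1.61 FPKM at day 3 and 0.701, 0.421 and 0.785 FPKM at day 14. Its log2 fold changes were -2.0 and -2.63 (adjusted p = 1.0e-19 and 1.3e-22 in limma). In hepatocytes Inhbe was the highest of the 3 subunit genes, and at both days of culture Inhba was. The plot of the subunit genes and follistatin by group shows these crossings.

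**Figure D1:**
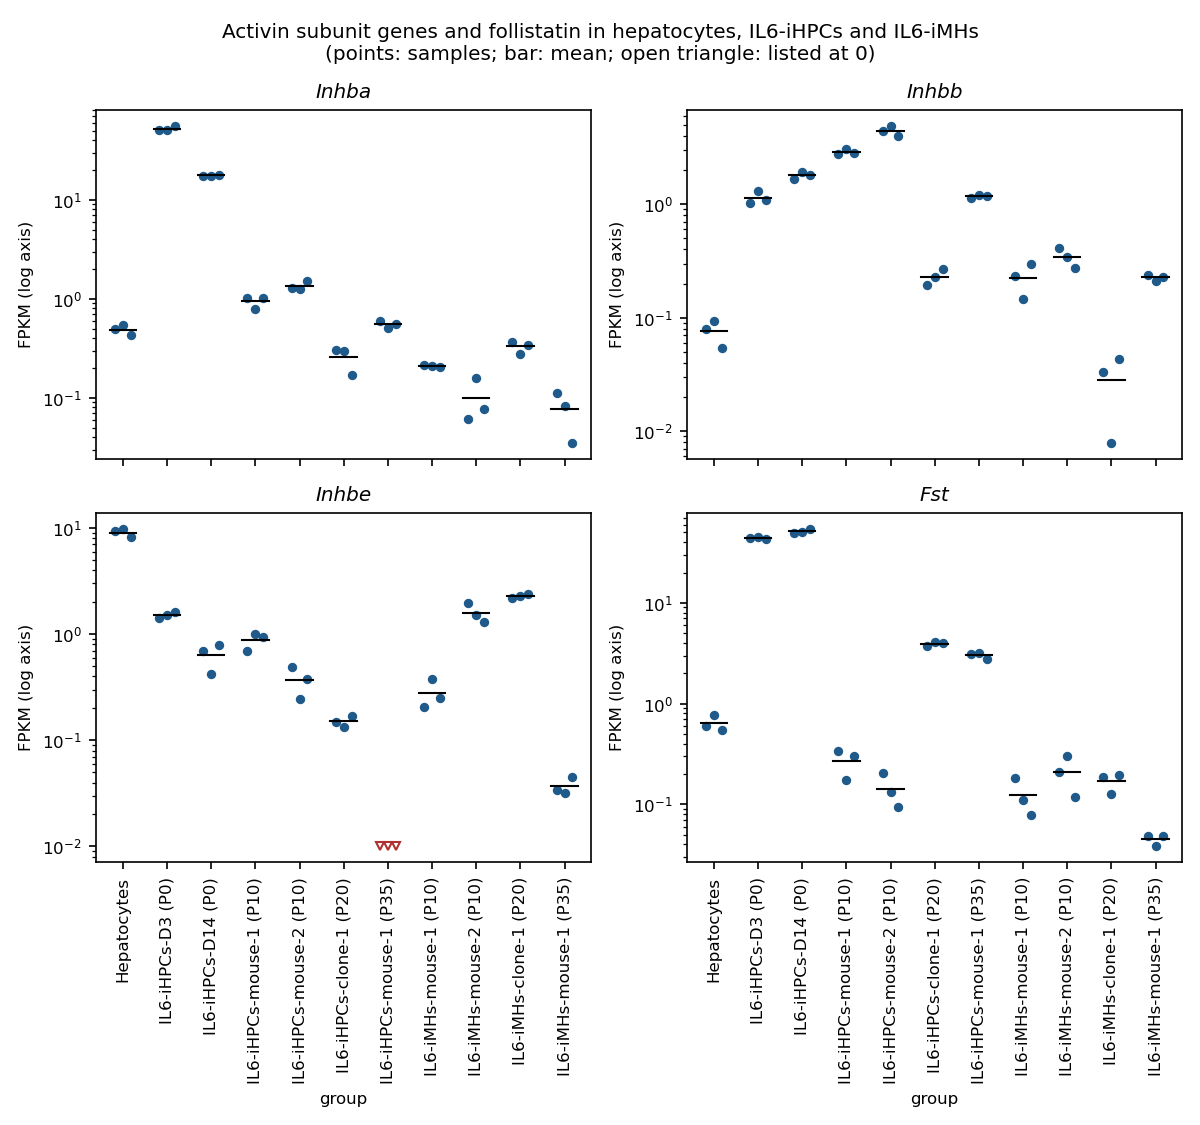
FPKM (log axis) of Inhba, Inhbb, Inhbe and Fst in the 3 samples (points) of each of 11 groups, with the group mean as a bar and samples listed at 0 as open triangles. Inhba and Fst are highest at days 3 and 14, Inhbe is highest in hepatocytes, and Inhbb peaks in IL6-iHPCs-mouse-2 (P10) at 4.02 to 4.88 FPKM.

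Among the TGF-beta genes, Tgfbr1, the type I receptor, showed the largest change of the 10 genes at day 3 on the log2(FPKM + 1) scale. It rose from 0.664, 0.885 and 0.806 FPKM to 70.2, 87.5 and 72.4 FPKM, a log2 fold change of 5.44 (standard error 0.12, adjusted p = 7.9e-27 in limma), and lay at 51, 55.1 and 54 FPKM at day 14. Tgfbr2, the type II receptor, rose less, from 2.58, 2.91 and 2.42 FPKM to 24.2, 21.8 and 24.4 FPKM and then to 35.6, 32.5 and 34.3 FPKM. The ratio of Tgfbr1 to Tgfbr2 thereby went from 0.298 ± 0.0383 in hepatocytes to 3.29 ± 0.63 at day 3 and 1.57 ± 0.13 at day 14 (SD, n = 3).

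Both ligand genes rose too. Tgfb1 stood at 0.684, 0.777 and 0.62 FPKM in hepatocytes and at 18.4, 15.1 and 20.4 FPKM at day 3 (log2 fold change 3.48), and fell to 11, 10.8 and 10.6 FPKM at day 14, a fall short of 2-fold. Tgfb2 was at 0 in all 3 hepatocyte libraries and at 7.62, 6.03 and 8.63 FPKM at day 3. Taking 3 reads as the floor of each hepatocyte library, at most 0.0103 FPKM, Tgfb2 was at least 720.6-fold higher at day 3 and at least 213.7-fold higher at day 14. Tgfb2 fell between the 2 days by 1.39 on the log2 scale (adjusted p = 8.3e-15 in limma).

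The inhibitor genes rose and then fell back. Skil went from 0.449, 0.701 and 0.667 FPKM to 47.5, 55.5 and 50.9 FPKM at day 3 and to 13.7, 12.8 and 14.7 FPKM at day 14. Smad7 went from 0.976, 0.916 and 0.667 FPKM to 14, 14.9 and 16.3 FPKM and to 4.72, 3.85 and 4.45 FPKM. In both, the 3 groups did not overlap, and the falls from day 3 to day 14 were 1.83 for Skil and 1.59 for Smad7 on the log2 scale, both called. From day 3 to day 14, Inhba, Tgfb2, Smad7 and Skil were the 4 of the 10 genes called, all lower, where 5.05% of all genes were called lower and 10.2% either way. After quantile normalization Smad7 and Inhbb no longer passed the 2-fold limit at day 14 against hepatocytes, at 0.14 and 0.77.

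Further genes of the pathway were read from lists by role. At day 3, where 53.9% of all genes were higher and 12.1% lower, 4 of 7 other ligand genes past the filter were higher and 1 lower, 6 of 7 other receptors were higher, as were 5 of 7 Smads, 6 of 10 regulators and 4 of 8 genes of latency and activation. Of 13 target genes, 9 were higher and 3 lower. Inhbc, a further activin subunit made by hepatocytes, showed the largest fall among the ligands, from 31.7 to 0.823 FPKM (log2 fold change -4.16), and Bmp4 the largest rise, from 0.796 to 12 FPKM (2.84). Smad3, which carries the signal of both ligand families, rose from 1.89 to 48.1 FPKM (4.09), and Tgif1, a corepressor, from 6.53 to 160.8 FPKM (4.43). Among the targets Ctgf, a matrix-associated growth factor, went from 0.026 to 407.7 FPKM (8.63), and Hamp, the iron hormone hepcidin, which is known to answer to BMPs, fell from 1108 to 12.4 FPKM (-6.39). At day 14, where 50% of all genes were higher and 12.9% lower, the counts higher and lower were 2 and 1 for ligands, 6 and 1 for receptors, 5 and 0 for Smads, 7 and 0 for regulators, 6 and 0 for latency and 7 and 2 for targets. Ltbp3, which binds latent TGF-beta, rose most among the latency genes (4.64), and Eng, the coreceptor endoglin, was the receptor gene that fell (-1.38).

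Sums of cell type markers moved as well. The summed FPKM of 8 Kupffer cell markers was 14.6 to 16.8 in hepatocytes, 0.0648 to 0.211 at day 3 and 1.16 to 1.23 at day 14, with Clec4f and Timd4 at 0 on both days and Marco also at 0 at day 3. That of 8 endothelial markers was 21.4 to 23.4, 10.3 to 13 and 1.29 to 1.86, with none at 0. That of 11 markers of stellate cells and fibroblasts was 1.25 to 1.49, 1.33 to 2.17 and 25 to 26.5, with none at 0 and 4 under 0.1 FPKM at day 14. The 5 biliary markers include Sox9 and Krt19 (Ck19), which the study takes as hepatic progenitor markers and reports in IL6-iHPCs. Their sum was 3.84 to 3.94, 354.9 to 529 and 4060 to 4483. That of 6 hepatocyte markers was 76484 to 82652, 600.1 to 715.9 and 3907 to 4947. The part of all these marker sums in the results was not tested. In bulk samples fewer cells of a type and less RNA per cell cannot be told apart.

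In passaged IL6-iHPCs the receptor genes and Tgfb1 were above hepatocytes. Inhba and Fst were not called over the mean of the 4 lines, which joins lines above and below hepatocytes. Mean Fst ran from 0.142 FPKM in mouse-2 (P10) to 3.91 FPKM in clone-1, against 0.634 FPKM in hepatocytes. Mean Inhba ran from 0.256 FPKM in clone-1 to 1.35 FPKM in mouse-2 (P10), against 0.489 FPKM in hepatocytes. On the log2(FPKM + 1) scale, which understates changes of low genes, the mean changes were 0.21 for Inhba and 0.50 for Fst (adjusted p = 8.2e-05 and 1.8e-10 in limma). After quantile normalization they were -0.68 and -0.60. Over the mean of the 4 lines, 6 of the 10 genes were called higher (Inhbb, Tgfb1, Tgfbr1, Tgfbr2, Smad7 and Skil) and Inhbe was called lower, where 48.1% of all genes were higher, 11.3% lower and 59.4% either way. The median of the 10 was 1.38 on the log2 scale, against 0.93 over all genes. Quantile normalization gave 24.1% higher and 18.8% lower over all genes, and Smad7 was then no longer called (0.16). Without clone-1 the number called was also 7. By line, 5 members were higher in mouse-1 (P10) (40% of all genes higher, 52.6% either way), 6 in mouse-2 (P10) (42.8% and 55.9%), 7 in mouse-1 (P35) (54.3% and 66%) and 6 in clone-1 (51.5% and 61.9%). Inhbe was called lower in each line, where 12.6%, 13.1%, 11.7% and 10.4% of all genes were, in the same order. Inhba, at 17.6 FPKM or more in every sample of days 3 and 14, lay between 0.169 and 1.5 FPKM in the 12 passaged samples, with a median of 0.691 FPKM. Of the other pathway genes, 5 of 7 receptors, 5 of 7 Smads, 7 of 10 regulators and 6 of 8 latency genes were higher in passaged IL6-iHPCs than in hepatocytes, where 48.1% of all genes were, and 1 receptor was lower. Ltbp1, a binding protein of latent TGF-beta, rose most among the latency genes (4.76).

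Tgfbr1 stayed between 15.1 and 66 FPKM in the 12 samples (log2 fold change 4.29 against hepatocytes, standard error 0.09). It was high in both P10 lines, with 66, 45.1 and 51.5 FPKM in mouse-1 and 52.8, 55.5 and 50.3 FPKM in mouse-2, and lower in mouse-1 at P35 (25.8, 24.3 and 24.5 FPKM) and in clone-1 (21.1, 19.3 and 15.1 FPKM). Tgfbr2 was more even, at 21 to 36 FPKM over all 12 samples. Skil kept to 5.92 to 15.7 FPKM and Smad7 to 2.05 to 7.15 FPKM. Tgfb2, at 0 in hepatocytes, lay at 0.11 to 1.3 FPKM. With the floor of 3 reads it was at least 11.2-fold higher in mouse-1 (P35) and at least 110.3-fold higher in mouse-2 (P10). Over the mean of the 4 lines its log2 fold change of 0.57 was not called, while voom on the recovered reads called it (8.08).

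Fst divided the lines. It stood at 3.71, 4.06 and 3.96 FPKM in clone-1 and at 3.08, 3.2 and 2.75 FPKM in mouse-1 at P35, above hepatocytes, and at 0.0929 to 0.336 FPKM in the 6 samples of the P10 lines, below hepatocytes. The log2 fold changes against hepatocytes were 1.59 and 1.3 in the first pair and -0.36 and -0.51 in the second, and those of the first pair were called. After quantile normalization clone-1 stood at 0.30 and mouse-1 (P35) at -0.00, neither called, and the P10 lines were called lower (-1.29 in mouse-1 and -1.41 in mouse-2). Tgfb1 divided them the same way by its levels, with 13.7 to 15.8 FPKM in clone-1 and 18.8 to 21 FPKM in mouse-1 at P35, and 4.74 to 6.57 FPKM in the P10 lines.

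Mouse-1 gave the comparison of 2 passages of 1 animal. From P10 to P35, Fst (log2 fold change 1.66), Tgfb1 (1.58) and Smad7 (1.20) were called higher and Tgfbr1 lower (-1.08), where 24.8% of all genes were called higher, 8.94% lower and 33.7% either way. Quantile normalization gave 14.4% higher and 13.6% lower, with Smad7 under 2-fold (0.79) and Skil called lower (-1.25). As deposited, all genes together had a median of 0.36, relative to which Fst stood at 1.3, Tgfb1 at 1.23, Smad7 at 0.84 and Tgfbr1 at -1.43. The Tgfbr1 call was lost without IL6-iHPCs-mouse-1 (P10) replicate 1 (-0.93). Inhbe was at 0 in all 3 samples of P35, which with a floor of 3 reads (0.024 FPKM) put P10 at least 36.8-fold higher.
In the same 2 lines where Fst and Tgfb1 were high, the summed FPKM of 6 leukocyte markers was 27.8 to 36.2 (clone-1) and 86.4 to 92.6 (mouse-1, P35), against at most 0.212 in the P10 lines. S100a8 made up 26.8 and 84 FPKM of it on average, and Ptprc, the general leukocyte marker, stood at 0.041 and 0.0753 FPKM. Cd3e was at 0 in mouse-1 at P35, and the part of these transcripts in the result was not tested.

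**Figure D2:**
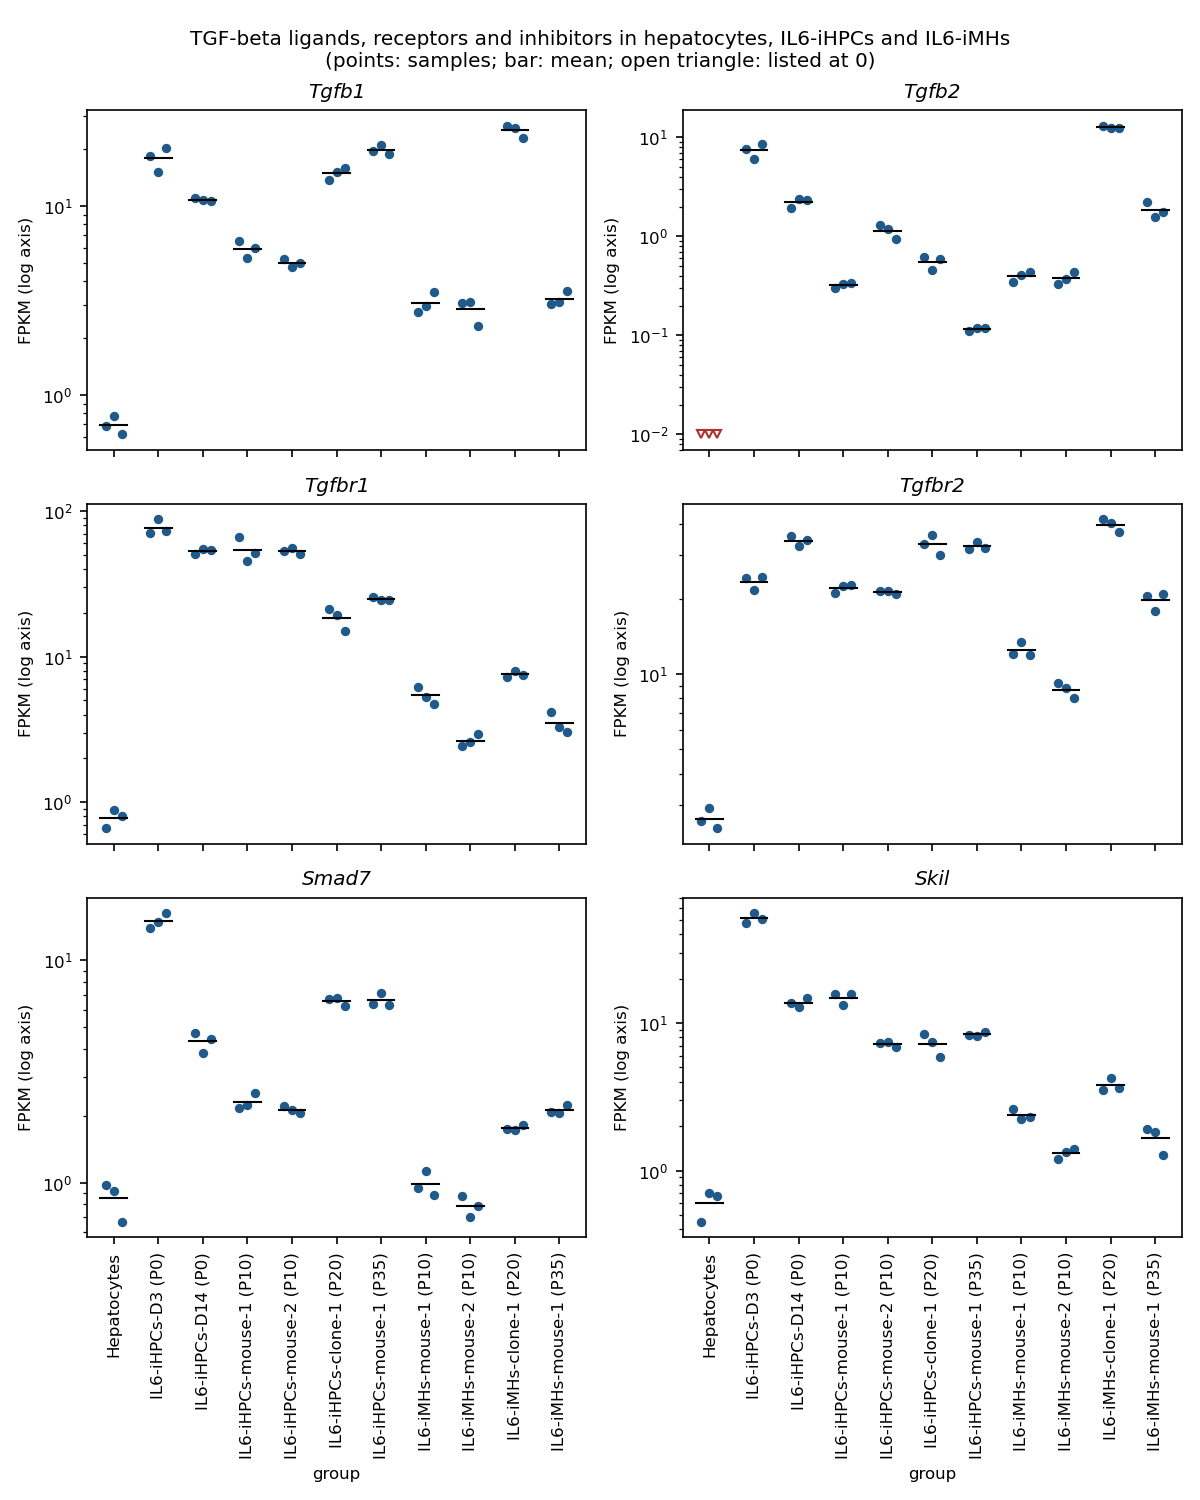
FPKM (log axis) of Tgfb1, Tgfb2, Tgfbr1, Tgfbr2, Smad7 and Skil in the 3 samples (points) of each of 11 groups, with the group mean as a bar and samples listed at 0 as open triangles. All 6 are lowest or near lowest in hepatocytes, and Tgfb1 and Tgfb2 are higher in IL6-iMHs-clone-1 (P20) (22.8 to 26.6 and 12.4 to 13.1 FPKM) than in the other IL6-iMHs.

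Over the mean of the 4 lines, induced maturation took the receptor gene Tgfbr1 and the inhibitor genes down. Against the IL6-iHPCs of the same line, 5 of the 10 genes were called lower over the mean of 4 lines (Inhbb, Fst, Tgfbr1, Smad7 and Skil) and 0 higher, where 21.4% of all genes were called lower, 6.68% higher and 28.1% either way. The median of the 10 was -0.89, against -0.40 over all genes. Tgfbr1 fell by 2.67 (standard error 0.06) and Skil fell by 1.66 (standard error 0.05) on the log2 scale, with adjusted p of 1.8e-26 and 3.5e-23 in limma. Both were called after quantile normalization too (9.64% of all genes higher, 8.92% lower), where the falls of Inhbb, Fst and Smad7 were under 2-fold (-0.91, -0.72 and -0.54) and Tgfb2 was called higher (1.24). Without clone-1 the falls of Fst (-0.68) and Smad7 (-0.94) were under 2-fold and that of Tgfb1 was called (-1.24).

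The change at maturation differed between the 4 lines for 9 of the 10 genes, by the F test of the interaction in limma and a gap between lines of at least 2-fold, as it did for 65.2% of all genes. Without clone-1 this held for 6, with Inhba, Tgfbr2 and Skil lost. The gap of Tgfb2 was 3.77 on the log2 scale (adjusted p = 1.8e-21 in limma), and 1.98 without clone-1, where that of Fst was 2.02. Tgfb2 rose in clone-1, from 0.614, 0.458 and 0.593 FPKM to 13.1, 12.4 and 12.5 FPKM (log2 fold change 3.14), and in mouse-1 at P35, from 0.11, 0.118 and 0.119 FPKM to 2.21, 1.58 and 1.76 FPKM (1.35). In the P10 lines it was not called (0.08 and -0.63). Counted by line, 0 members rose and 3 fell in mouse-1 (P10) (9.59% of all genes higher, 15.4% lower, 25% either way), and 0 rose and 5 fell in mouse-2 (P10) (11.2%, 28.6% and 39.9%). In mouse-1 (P35) 1 rose and 5 fell (10.2%, 35.1% and 45.3%), and in clone-1 2 rose and 3 fell (5.86%, 17.7% and 23.6%). Tgfb1 fell in mouse-1 at P35, from 19.5, 21 and 18.8 FPKM to 3.04, 3.1 and 3.54 FPKM (-2.30), while in clone-1 it stood at 13.7, 15.2 and 15.8 FPKM before and 26.6, 25.9 and 22.8 FPKM after, a change short of 2-fold (0.72). Tgfbr1 was called lower in each of the 4 lines, by 3.10, 3.88, 2.54 and 1.18 on the log2 scale in mouse-1 (P10), mouse-2 (P10), mouse-1 (P35) and clone-1. After quantile normalization its fall in clone-1 was under 2-fold (-0.73). Smad7 was the gene whose changes differed by less than 2-fold between lines. It was called lower in mouse-1 (P35) and clone-1, but not in mouse-1 (P10) (-0.74) or mouse-2 (P10) (-0.81). Skil was called lower in each line but clone-1 (-0.77).

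**Figure D3:**
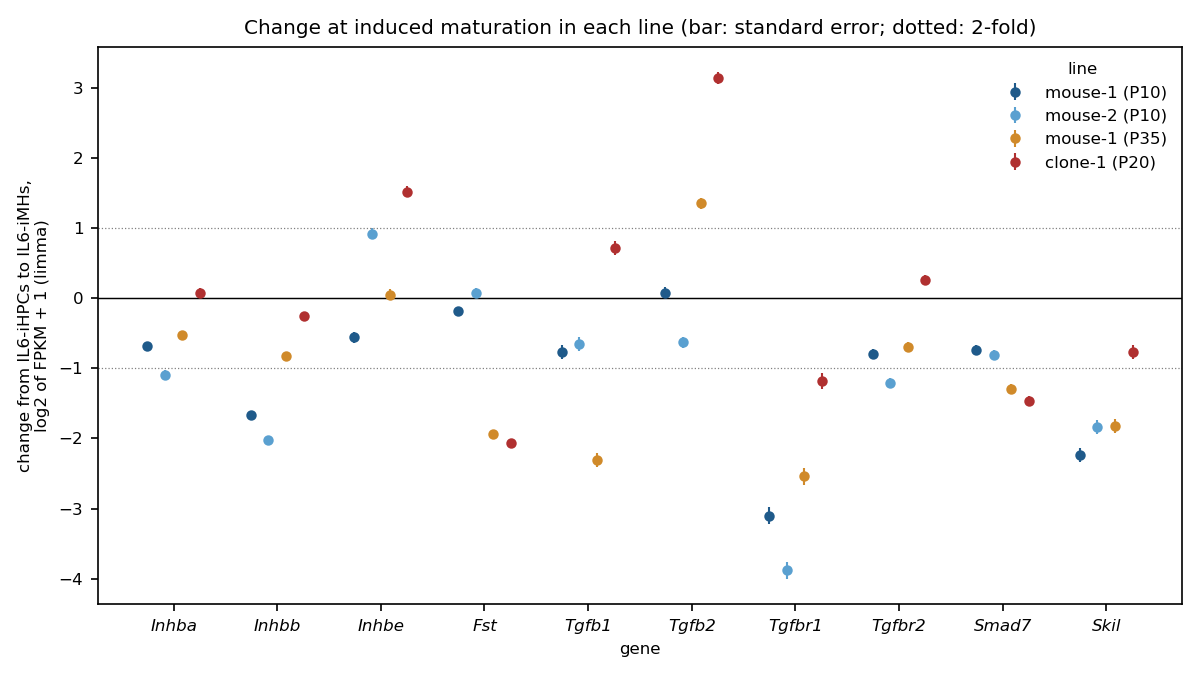
Change from IL6-iHPCs to IL6-iMHs on the log2(FPKM + 1) scale for each of the 10 genes (horizontal axis) in each of 4 lines (colours), with the standard error of limma as bars and 2-fold changes as dotted lines. Tgfbr1 lies below the lower dotted line in each line, and Tgfb2 runs from -0.63 in mouse-2 (P10) to 3.14 in clone-1 (P20).

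Marker sums changed at maturation too. The sum of the 5 biliary markers went from 2699 to 10977 FPKM over the 12 IL6-iHPC samples to 200.1 to 1408 FPKM over the 12 IL6-iMH samples, and that of the 11 markers of stellate cells and fibroblasts from 3.55 to 19.5 to 0.0822 to 0.624. The leukocyte sum went from 86.4 to 92.6 to 1.14 to 2.16 in mouse-1 (P35) and from 27.8 to 36.2 to 0.053 to 0.0864 in clone-1. The Kupffer cell sum in mouse-1 (P35) went from 0.0404 to 0.185 to 17.8 to 21.3. In these IL6-iMHs Clec4f, Vsig4, Cd5l and Timd4 were at 0, and 7 of the 8 Kupffer cell markers were under 0.1 FPKM. The part of these marker sums in the results was not tested.

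The IL6-iMHs also differed from hepatocytes, in part through levels reached only at maturation, as for Tgfb2 in clone-1 and mouse-1 (P35). Tgfb1, Tgfb2, Tgfbr1 and Tgfbr2 were called higher and Inhbe lower over the mean of the 4 lines, 5 of 10 genes, where 24.8% of all genes were called higher, 7.79% lower and 32.6% either way. Quantile normalization gave 13.7% and 10.7%, and Inhba (-1.07) and Fst (-1.32) were then called lower. By line, 4 members were higher in mouse-1 (P10) (25.4% of all genes higher, 32.6% either way), 3 in mouse-2 (P10) (17.6% and 25.2%), 4 in mouse-1 (P35) (27.1% and 35.2%) and 5 in clone-1 (35% and 45.3%). Inhbe was lower in each line, where 7.25%, 7.63%, 8.02% and 10.4% of all genes were. Tgfbr2 rose by 2.32 on the log2(FPKM + 1) scale, with 8 to 41.6 FPKM in the 12 samples. Tgfb2, at 0 in hepatocytes, was at least 36.5-fold higher in mouse-2 (P10) and at least 1230-fold higher in clone-1. On the log2(FPKM + 1) scale the rise of Tgfb2 (1.55) was under 2-fold without clone-1 (0.81). That of Tgfbr1 (1.61) was under 2-fold after quantile normalization (0.93). Tgfb1 kept its call over the mean of the 4 lines then (1.27), but its mean FPKM was 25.1 in clone-1 and 2.84 to 3.22 in the other lines. By line, quantile normalization put its rise under 2-fold in mouse-1 (P10) (0.56), mouse-2 (P10) (0.82) and mouse-1 (P35) (0.63). The rise of Tgfbr2 was under 2-fold in mouse-2 (P10) (0.81). The levels of Inhbe in IL6-iMHs stayed under those of hepatocytes. It stood at 2.2, 2.28 and 2.4 FPKM in clone-1 and 1.95, 1.53 and 1.31 FPKM in mouse-2, at 0.206, 0.375 and 0.252 FPKM in mouse-1 at P10 and at 0.0341, 0.0316 and 0.0451 FPKM in mouse-1 at P35. Inhba and Fst were below hepatocytes in all 12 IL6-iMH samples, at 0.0347 to 0.369 FPKM and 0.0381 to 0.304 FPKM.

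Of the other pathway genes in IL6-iMHs against IL6-iHPCs, where 21.4% of all genes were lower and 6.68% higher, 4 of 7 receptors and 3 of 7 Smads were lower and 0 of either higher. Bmpr2, a type II receptor of BMPs, fell most among the receptors (-1.96), and Smad1 among the Smads (-1.14). Of 13 targets 2 were higher and 2 lower, with Timp1, a metalloproteinase inhibitor, falling most (-2.33). 
Across the 11 group means of the cell table, the genes whose pattern was most like that of each member were picked from 11757 genes that spanned at least 2-fold. They were Zscan18 and Dgkh for Inhba (r = 0.991 and 0.989), Dzip1 and Gria3 for Fst (both 0.987), Ogt and Eea1 for Tgfbr1 (0.996 and 0.993) and Rbm48 and Fam199x for Skil (0.99 and 0.989). The closest genes to Inhbe, Crem and Serpinf1, were less alike (both 0.904). Among the members themselves, Tgfbr1 and Skil (0.93) and Inhba and Fst (0.90) were the most alike, and Inhbe and Tgfbr2 the least (-0.67). These r values describe group means that share libraries and lines.

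After PHX at most 3 of the genes were called at any 1 time. At 6 hours Inhbb, Fst and Skil were called higher against Normal liver and no member lower, 3 of 9 tested, where 4.78% of all genes were called higher, 11.5% lower and 16.3% either way. After quantile normalization 6.82% of all genes were higher and 6.24% lower at 6 hours. At 24 hours Inhbb and Skil were called higher (3.74% of all genes higher, 7.9% either way), and at day 3 Tgfbr2 and Skil (3.33% higher, 5.82% either way). At day 7 Tgfb1 and Tgfbr2 were called higher and Inhbe lower (7.81% higher, 1.03% lower, 8.84% either way). At day 14 limma called 0 of the 9, where 2.98% of all genes were called, and 3 of them (Inhbe, Fst and Tgfb1) had an unadjusted p under 0.05, and voom also called 0. All 5 comparisons share the 3 Normal liver samples. At 6 hours the leukocyte marker sum was 39.4 to 41.5 FPKM against 3.64 to 10.4 in Normal liver, the Kupffer cell sum 58.6 to 119.7 against 166.4 to 267.1, the endothelial sum 81.7 to 95.3 against 140.7 to 150.6 and the biliary sum 39.8 to 81.8 against 26.9 to 33, with no marker at 0, and their part in the results was not tested.

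Inhbb gave the largest change. It stood at 0.847, 0.531 and 0.248 FPKM in Normal liver and at 11, 6.88 and 7.71 FPKM at 6 hours, with no overlap (log2 fold change 2.62, standard error 0.62, adjusted p = 0.002516 in limma). At 24 hours 2 samples stayed high (7.47 and 7.57 FPKM) and the third, at 0.808 FPKM, lay within the range of Normal liver. The call at 24 hours (1.74, adjusted p = 0.04143 in limma) was lost in 5 of the 6 fits that left out 1 sample. Inhba did not share the rise, with 0.106, 0.0898 and 0.168 FPKM at 6 hours below the 0.836, 0.485 and 0.916 FPKM of Normal liver, a difference that was not called (-0.63, adjusted p = 0.1174 in limma). With a pseudocount of 0.1 it was called lower (-1.91, adjusted p = 0.01664 in limma), and with voom on the recovered reads it was not called (-2.62).

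Skil, the corepressor, stood above Normal liver at every time. It stood at 1.31, 1.47 and 1.22 FPKM in Normal liver, at 6.77, 5.52 and 7.4 FPKM at 6 hours and at 2.59, 6.97 and 5.12 FPKM at 24 hours. All later samples, down to 2.28 FPKM at day 14, lay above all 3 of Normal liver, though days 7 and 14 were not called. The log2 fold change was 1.69 at 6 hours (adjusted p = 3.9e-04 in limma) and 1.26 at 24 hours. At day 3 it was 1.20, and 0.77 without PHX-D3 replicate 2. Fst at 6 hours, at 7.74, 2.08 and 4.29 FPKM against 1.76, 0.856 and 1 FPKM, did not overlap Normal liver, but its call (1.27, adjusted p = 0.04896 in limma) was lost in 5 of 6 fits that left out 1 sample and with a replicate block (adjusted p = 0.05531 in limma).

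PHX-D3 replicate 2, the library that resembled PHX-24h, decided the calls of day 3. It held 7.75 FPKM of Inhbb, 12.1 FPKM of Fst and 23.3 FPKM of Tgfbr2, where the other two held 0.54 and 0.259 FPKM, 1.47 and 2.43 FPKM, and 7.9 and 12 FPKM. Without it 0 of the 9 genes were called at day 3. Its marker sums were 252.1 FPKM for stellate cells and fibroblasts, 146.8 for biliary cells, 416.3 for Kupffer cells and 37.4 for leukocytes, where the others had 98.5 and 112.7, 49 and 29.9, 241 and 159.3, and 14.5 and 8.51, and their part in the result was not tested.

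Tgfb1 rose at day 7. It stood at 5.38, 4.95 and 5.85 FPKM in Normal liver, between 3.64 and 7.96 FPKM in the 9 samples from 6 hours to day 3, at 24.8, 18.2 and 16.8 FPKM at day 7 and at 8.61, 7.18 and 5.83 FPKM at day 14. Day 7 did not overlap any other group, and its log2 fold change was 1.70 (standard error 0.16, adjusted p = 1.3e-06 in limma). Inhbe was at its lowest mean at day 7, at 5.35, 5.43 and 5.25 FPKM against 22.7, 19.1 and 22 FPKM (log2 fold change -1.81, adjusted p = 0.0129 in limma). Tgfbr2 at day 7, at 13.6, 12.5 and 11.7 FPKM against 5.71, 4.64 and 6.6 FPKM, did not overlap Normal liver, but its call (1.04) was lost in each of the 6 fits that left out 1 sample. Tgfbr1 and Smad7 were not called at any time, at 2.75 to 7.46 FPKM and 1.44 to 4.32 FPKM over all 18 samples.

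At day 7 other cell types' markers also stood high. The summed FPKM of 8 Kupffer cell markers was 969.9 to 1414 against 166.4 to 267.1 in Normal liver, and that of 6 leukocyte markers 78.9 to 132.6 against 3.64 to 10.4, with none of either list at 0. The sums for 8 endothelial markers were 180.8 to 278.7 against 140.7 to 150.6, and for 11 markers of stellate cells and fibroblasts 145.1 to 226.3 against 93.8 to 119.3. The sum for 6 hepatocyte markers was lower, at 40889 to 47020 against 54597 to 59677. The 4 Y-linked genes summed to 27.5 to 35.5 FPKM at day 7 and 17.2 to 21 FPKM at day 14, against 46.2 to 66.7 FPKM in Normal liver. The part of these sums in the changes of Tgfb1, Tgfbr2 and Inhbe was not tested. Among the pathway lists, 3 of 6 ligands and 7 of 14 targets were higher at day 7, where 7.81% of all genes were, with Gdf15, a stress-induced ligand, rising most among the former (3.67) and Cdkn1a, the cell cycle inhibitor p21, among the latter (2.88). At 6 hours 8 of 14 targets were higher, where 4.78% of all genes were, again led by Cdkn1a (6.12), at 176.2 against 1.6 FPKM.

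**Figure D4:**
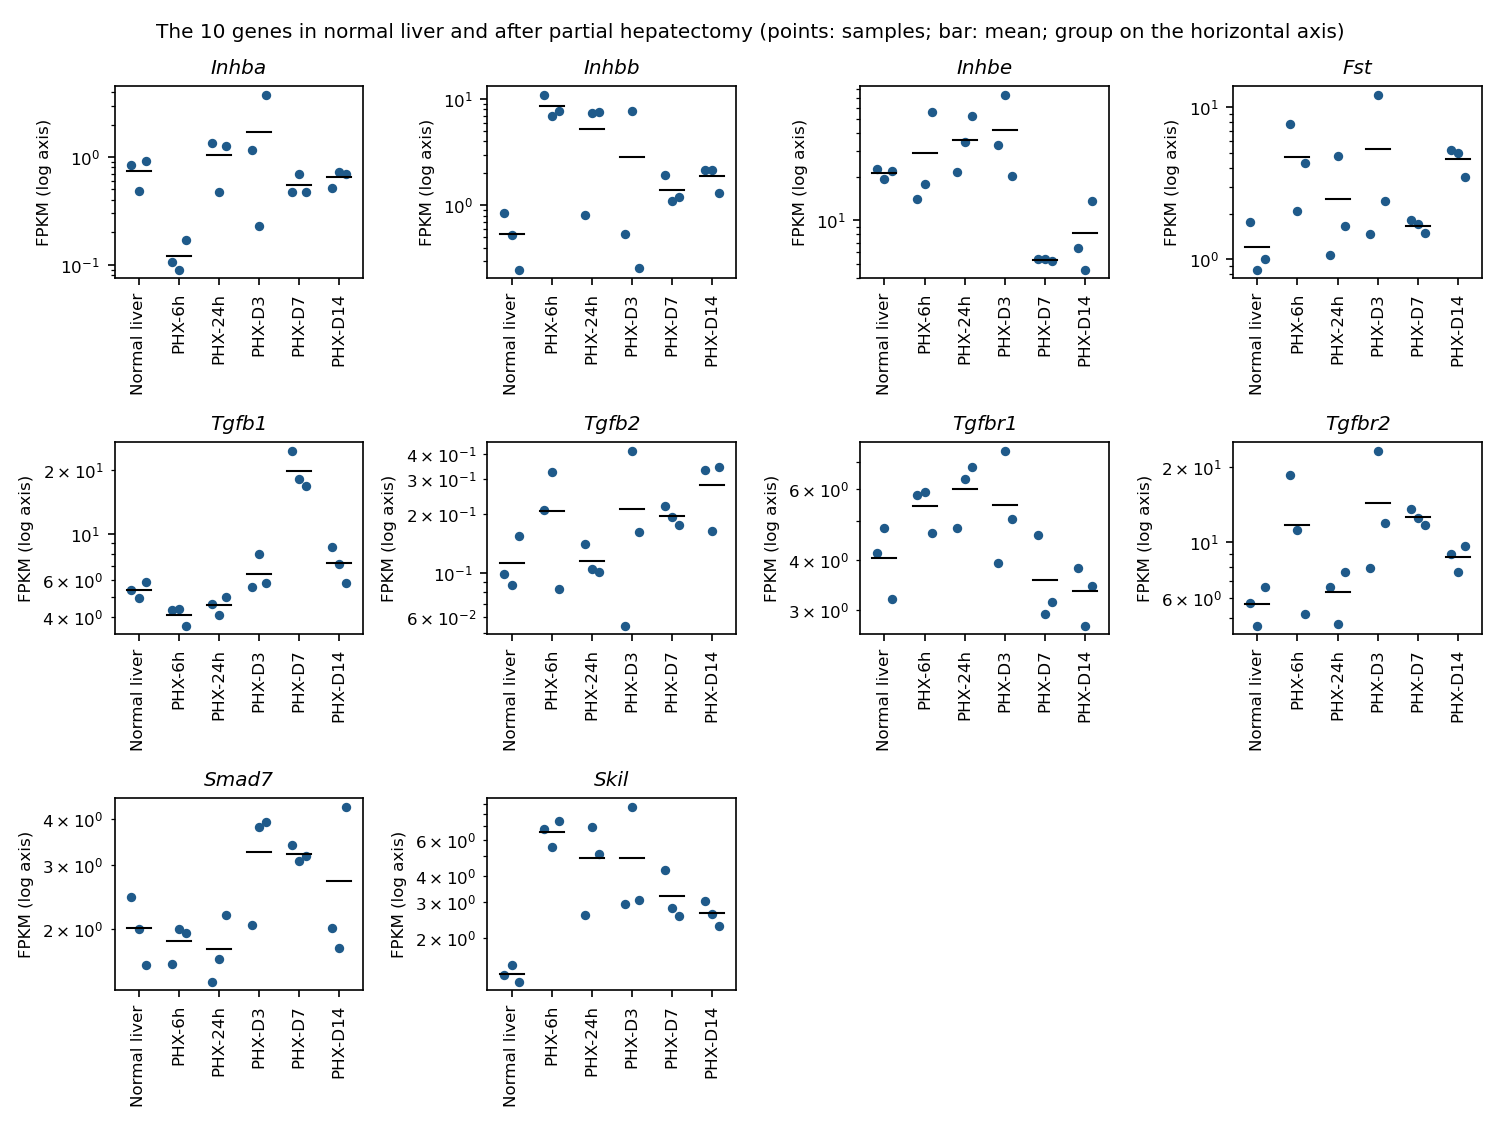
FPKM (log axis) of the 10 genes in the 3 samples (points) of Normal liver and of 5 times after PHX, with the group mean as a bar. Skil lies above Normal liver at every time, Inhbb peaks at 6 hours (6.88 to 11 FPKM) and Tgfb1 at day 7 (16.8 to 24.8 FPKM).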

How the data were processed

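Tables by gene symbol, made by the authors from sequencing of purified mRNA, were used as deposited. The authors scaled the values per kilobase of transcript and to library depth (FPKM), a unit inferred here from the values and the named tools. The labels name TopHat 1.4.1, Cufflinks 1.3.0 and mm10, and their settings are not given in the sources used here. Symbols listed more than 1 time were averaged. Tests covered genes reaching 1 FPKM in 3 or more samples, on log2(FPKM + 1), a scale that understates changes of low genes, with limma 3.58.1 in R 4.3.3 (trended variances, all groups of a table in 1 fit, Benjamini-Hochberg over all genes tested, called at an adjusted p under 0.05 and 2-fold). With 3 samples against 3, p-values rest on variances shared across genes. Reads were recovered from the FPKM steps, to within 0.02 of a whole number, for 18824 of 18828 genes in the cell table and 17325 of 17329 in the liver table. Floors of 3 reads cover counting error only, while SDs and standard errors rest on the spread between samples within groups. The 9 samples of the day 7 table were not used here, because it lists none of the 10 genes. The members and lists were chosen with earlier results of these data known. All 10 members were tested in each cell comparison and 9 in each liver comparison, and not every member is named for each. From each role list at most the largest called rise and fall per comparison are named (Ptprc, S100a8 and Cd3e were named after their values were seen). Some genes of the role lists are not reported here. Alternatives were a pseudocount of 0.1, no filter, quantile normalization, a replicate block, only the samples compared, no fold limit, voom on recovered reads and leaving out each sample. Leaving out clone-1, and leaving out PHX-24h replicate 1 with PHX-D3 replicate 2, are further alternatives chosen after seeing the data. The steps were tested on simulated data. Python 3.11.15 with numpy 2.4.6, pandas 2.3.3 and matplotlib 3.10.9 was used for tables and figures.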

Additional observations from a re-analysis of the deposited data

Results flagged for a closer look

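For 9 of the 10 genes, the change from IL6-iHPCs to IL6-iMHs differed between the 4 lines (F test of the interaction in limma, Benjamini-Hochberg over all genes, and a gap of at least 2-fold). The gap between the line with the highest and the line with the lowest change was 3.77 for Tgfb2, 3.02 for Tgfb1, 2.71 for Tgfbr1, 2.15 for Fst, 2.07 for Inhbe, 1.76 for Inhbb, 1.47 for Tgfbr2, 1.46 for Skil and 1.18 for Inhba on the log2 scale. Without clone-1, whose IL6-iHPC and IL6-iMH libraries disagree in Y-linked reads, the gaps were 1.98, 1.65, 1.35, 2.02, 1.48 and 1.19 for Tgfb2, Tgfb1, Tgfbr1, Fst, Inhbe and Inhbb, and Tgfbr2 (0.52), Skil (0.40) and Inhba (0.57) were no longer called. Of all genes tested, 65.2% showed such a difference. With 3 samples per group no test for a single distant sample was made.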

How the results depend on the processing

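Of the 13 counts of called members, those of the first culture against hepatocytes kept within 1.5 times under every alternative run. A pseudocount of 0.1 gave 8 called members both for IL6-iMHs against hepatocytes and for IL6-iMHs against IL6-iHPCs, and voom on the recovered reads also gave 8 in each. Quantile normalization gave 3 for IL6-iMHs against IL6-iHPCs. Without the fold limit 10 were called in each of these, in day 14 against day 3 and in mouse-1 at P35 against P10, where voom gave 7. At 24 hours after PHX, no filter and voom each gave 1. At day 3 after PHX, no filter gave 1, and using only the samples compared gave 0, as did leaving out PHX-24h replicate 1 and PHX-D3 replicate 2, an alternative chosen after the members' values had been seen, although over 2000 genes PHX-24h replicate 1 resembled its own group most (r = 0.944). At day 14 after PHX, using only the samples compared gave 2. The alternative of only the samples compared was not run for the difference between the 4 lines, and the planned day 7 comparison gave no value. The causes were not tested.

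Leaving out 1 sample at a time gave 9 to 10 members at day 3 of culture, 10 at day 14, 4 for day 14 against day 3, 7 for passaged IL6-iHPCs, 5 to 6 for IL6-iMHs against hepatocytes, 5 for IL6-iMHs against IL6-iHPCs, 3 to 4 for P35 against P10 and 9 for the difference between lines. After PHX it gave 2 to 3 at 6 hours, 1 to 2 at 24 hours, 0 to 3 at day 3, 2 at day 7 and 0 to 1 at day 14.

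Samples with the same replicate number in different groups did not deviate together (mean r of -0.015 for cells and -0.030 for livers, with 4 of 33 and 5 of 18 samples closest to their own number), so the numbers were not taken to pair samples. With the replicate block the counts were 9, 10, 4, 7, 5, 5, 4 and 9 for cells and 2, 2, 2, 2 and 0 for livers, in the order above, and Fst at 6 hours (1.27, adjusted p = 0.05531 in limma) and Tgfbr2 at day 7 (1.04, adjusted p = 0.05585 in limma) lost their calls. The log2 fold change of Fst in IL6-iHPCs-mouse-1 (P35) against hepatocytes was -0.00 after quantile normalization, against 1.3 as deposited.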
